A study of Homo sapiens with 6 samples.

Results

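Small nucleolar RNA (snoRNA) host genes were examined in SW403 cells with and without a knockdown of IRS2. The set was taken by symbol: every row of the count table named SNHG followed by a number, together with GAS5, ZFAS1 and DANCR. This gave 27 of 26490 rows. EPB41L4A-AS1, which the same rule names, was not analysed here. Of the 27 host genes, 24 had enough reads to be tested, among 13832 tested genes in all.

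SW403 is an established human colon adenocarcinoma line. The control group (3 libraries) is labelled wild type and NS, and the knockdown group (3 libraries) is titled as a knockdown but carries the letters KO in its sample descriptions. Cells of both groups were seeded in DMEM with 10% fetal bovine serum for 24 h, with no treatment. The replicates are titled as biological and were seeded as triplicates of each cell population. How IRS2 was lowered, and whether each population is a clone or a pool, is not stated, so p-values measure the spread between these 3 seedings. IRS2 encodes an adaptor that passes signals from the insulin and IGF1 receptors to PI3 kinase, and the series places it in brain metastasis of colorectal cancer.

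A snoRNA host gene is transcribed and spliced, and its exons and introns then part ways. The introns are trimmed to snoRNAs, which guide chemical modification of ribosomal and spliceosomal RNA or, for a few, cleavage of the ribosomal RNA precursor. The spliced exons leave for the cytoplasm, where many have no long reading frame. Several of them, GAS5 first among those described, begin with a 5′ terminal oligopyrimidine tract, the signal that couples ribosomal protein mRNAs to mTOR. They are loaded on ribosomes during growth and degraded by nonsense-mediated decay, so that GAS5 RNA is known to build up when growth or translation is arrested. Host genes therefore sit where growth signalling, translation and RNA decay meet.

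What the introns hold is shown by 4 snoRNAs, chosen because their hosts are among the genes described below and GENCODE places them on GRCh37, the build (hg19) named in the submitters' processing notes. Capitals mark letters, found by script, that match the boxes bound by the core proteins. These are TGATGA near the 5′ end and CTGA near the 3′ end for the C/D class. For the H/ACA class the match is ACA near the 3′ end. SNORD60 lies in an intron of SNHG19 (chr16:2205024-2205106, minus strand), SNORD78 in GAS5 (chr1:173834760-173834824, minus strand), SNORA60 in SNHG11 (chr20:37078013-37078146, plus strand) and SNORA26 in DANCR (chr4:53579416-53579537, plus strand).
SNORD60: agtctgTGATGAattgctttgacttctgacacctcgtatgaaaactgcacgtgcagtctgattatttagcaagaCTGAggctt
SNORD78: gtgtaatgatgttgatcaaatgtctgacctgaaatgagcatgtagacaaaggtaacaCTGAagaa
SNORA60: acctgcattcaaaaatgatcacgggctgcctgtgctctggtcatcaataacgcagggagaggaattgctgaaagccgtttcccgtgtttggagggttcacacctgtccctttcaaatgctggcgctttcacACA
SNORA26: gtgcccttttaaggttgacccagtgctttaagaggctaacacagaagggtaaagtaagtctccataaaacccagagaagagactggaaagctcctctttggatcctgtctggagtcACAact
SNORD60 has matches to both C/D boxes, and SNORD78 carries CTGA but no exact TGATGA in the first 20 bases. In SNORA60 the marked ACA is the very end of the annotated sequence, and whether it is the box used was not tested.

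RefSeq's gene table places 59 snoRNAs inside 25 of the 27 host genes by position, and strand was not compared. They are 37 of the C/D class, 19 of the H/ACA class and 3 small Cajal body RNAs. GAS5 holds 11, SNHG1 holds 8, SNHG12 and SNHG17 hold 4 each, and most others hold 1 to 3. Of these snoRNAs, 43 have a row of their own in the count table. Those rows gathered 456 counts over all 6 libraries. The counts below are those of the host gene rows. Whether reads of snoRNAs, above all of those without a row, were counted for their hosts was not tested.

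The first bases of the host transcripts were read from RefSeq promoters (GRCh38.p14), from 10 bases before the annotated start to 20 after it. The 8 windows shown are those of ZFAS1 and of the host genes past the threshold that have an entry (SNHG6 and SNHG15 have none). Capitals mark a C followed by at least 4 letters that are each C or T, where such a run begins within 5 bases of the annotated start.
SNHG5: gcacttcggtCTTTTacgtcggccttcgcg
SNHG19: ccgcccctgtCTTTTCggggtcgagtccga
ZFAS1: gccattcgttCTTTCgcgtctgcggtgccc
DANCR: tgcgcgccccgCCCTTgcccagagtcttcc
SNHG1: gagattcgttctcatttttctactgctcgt
GAS5: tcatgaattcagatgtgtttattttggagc
SNHG11: gctctaggctgcagccgcgcccccagccgt
SNHG29: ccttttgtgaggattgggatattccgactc
In SNHG5, SNHG19 and ZFAS1 the run starts at the first annotated base, as in a terminal oligopyrimidine tract. Among the 23 host genes with an entry, 6 had such a run exactly at the start (26.1%, against 4.07% of all 35116 promoters in the table and 56.5% of 85 for symbols of ribosomal protein genes). Within 5 bases of the start it was found in 12 of 23 (52.2%, against 21.1% of all promoters). Annotated starts can lie away from the start used in a given cell, and no match says only that these letters are not in this window. GAS5, described above as beginning with a terminal oligopyrimidine tract, shows no run here, so its window may not cover that start. The letters CACGTG, the palindromic site bound by MYC and MAX among others, were present in the 300 bases around the start of 1 host gene, SNHG7 (4.35% of 23, against 7.26% of all promoters); the site reads the same on both strands.

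The libraries held 11816973 to 12585013 counts in control and 14329348 to 18114656 in knockdown, so each knockdown library was deeper. Pearson correlations of log2 CPM across genes were 0.992 to 0.994 within groups and 0.980 to 0.982 between them. IRS2 itself was at 32.1, 34.6 and 31.8 CPM (counts scaled to library size, with TMM factors) in control and 13.1, 12.4 and 12.1 CPM after knockdown, a log2 fold change of -1.39 ± 0.07 (SE, n = 3 each) with an adjusted p of 3.12e-11 in edgeR. Of 13 colon epithelial markers, 6 had a mean of at least 10 counts (KRT8, KRT18, KRT19, EPCAM, CDX2 and VIL1), while CEACAM5, CDX1 and KRT20 had 0 counts in every library and CDH1 had 0 to 5. The 13 markers summed to 2537 to 2637 CPM in control and 2364 to 2457 CPM in knockdown. The 13 markers of blood, vessel, stromal and liver cells summed to 12.5 to 28.8 CPM in control and 8.97 to 11.5 CPM in knockdown, the highest sum being that of control replicate 1 (COL1A1, 193 counts), and PECAM1, HBB and ALB were at 0. The part of these differences in the values below was not tested.

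Most tested host genes sat slightly lower in knockdown. SNHG11, SNHG19, SNHG5, SNHG6, SNHG15, GAS5 and SNHG1 fell, by 0.11 to 0.34 on the log2 scale, and SNHG29 and DANCR rose, by 0.08 and 0.12. In all, 9 of 24 (37.5%) passed the threshold (adjusted p below 0.05, quasi-likelihood test of edgeR), against 38.5% of all tested genes, so the share that changed was near the background. The direction was uneven: 7 of 24 were lower (29.2%, background 19.2%) and 2 of 24 higher (8.33%, background 19.3%). Their median log2 fold change was -0.11, with 20 of 24 below 0, beside a median of -0.00391 and 50.8% below 0 over all tested genes. The groups did not overlap for 10 of 24 host genes (41.7%, background 47.6%), namely the 9 that passed and SNHG21. Together the 27 host genes took 0.172% to 0.177% of the counts of a control library and 0.165% to 0.167% of those of a knockdown library. These shares use total counts without TMM factors. On that scale the median log2 fold change over all tested genes was itself -0.03.

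**Figure D1:**
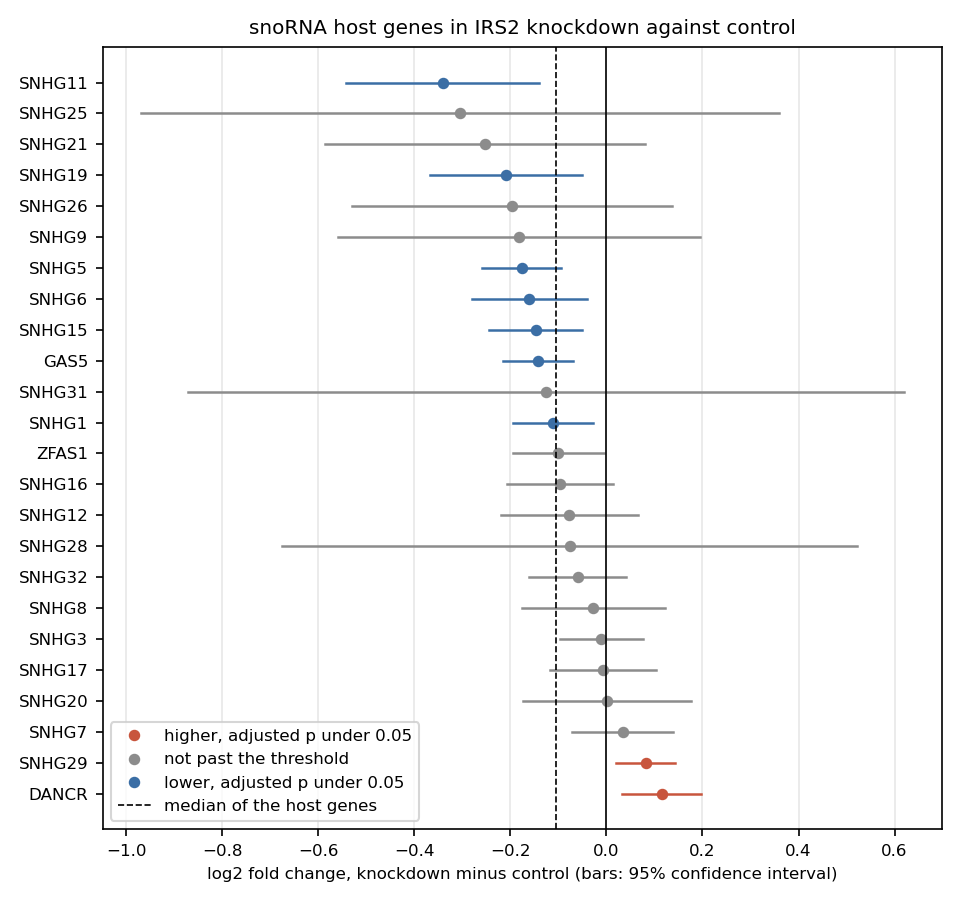
Log2 fold change (horizontal axis, knockdown minus control) of the 24 tested snoRNA host genes, with bars for the 95% confidence interval and a dashed line at their median of -0.11. The 7 genes that fell lie between -0.34 and -0.11, and the bars of SNHG25, SNHG31 and SNHG28, which have the fewest counts, are the widest.

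The changes are small, and several calls hang on single libraries or on one setting. Of 19 alternative fits, SNHG5 passed in all 19, SNHG11 and GAS5 in 17, SNHG15 in 15, DANCR in 13, SNHG29 in 11, SNHG6 in 9, SNHG19 in 7 and SNHG1 in 6. Scaling by library size alone, in place of TMM factors, left 8 host genes lower and 0 higher, against 7 and 2. It moved all genes the same way, with 40.8% of all calls higher, against 50.2%, and a median log2 fold change of -0.03 over all tested genes. DESeq2's Wald test called 2 host genes lower and 2 higher, and 10.8% of all genes it tested were lower. Leaving out 1 library gave 4 to 6 calls, and the count fell by more than 1.5 times without control replicate 1 (4 calls), control replicate 2 (5), control replicate 3 (5) or knockdown replicate 3 (5).

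Removing from each library a trend with transcript length and GC content ended the call of GAS5. In the planned form of this correction, GAS5 was at -0.05 (edgeR adjusted p 0.254). Also short of the threshold were SNHG6 (-0.09, edgeR adjusted p 0.209), SNHG19 (-0.10, edgeR adjusted p 0.311) and SNHG1 (-0.03, edgeR adjusted p 0.532). SNHG5 (-0.11), SNHG11 (-0.28) and SNHG15 (-0.11) stayed lower and SNHG29 (0.20) and DANCR (0.16) higher, so 3 were lower and 2 higher. That form also moved the scale of all genes: 65.9% of all calls were higher, against 50.2% without it, and the median log2 fold change was 0.05 over all tested genes and -0.05 over the host genes. After this result had been seen, the trend was centred in each library to keep the TMM scaling, which gave 51.6% of all calls higher. GAS5 then passed (-0.10, edgeR adjusted p 0.02003), with 4 host genes lower, 2 higher and a median of -0.10, while SNHG6, SNHG19 and SNHG1 did not pass in either form. The call of GAS5 therefore depends on how the corrected libraries are scaled.

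**Figure D2:**
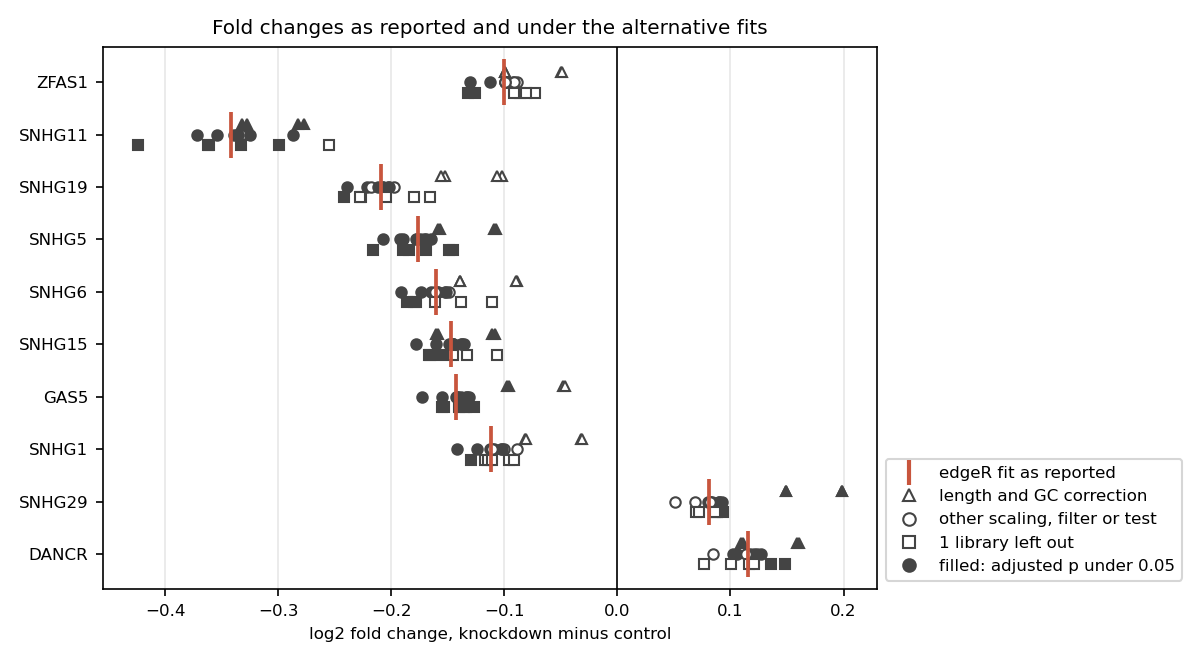
Log2 fold change (horizontal axis) of the 9 host genes that passed the threshold, and of ZFAS1, as reported (red bar) and under 19 alternative fits (triangles, length and GC correction in both forms; circles, other scalings, filters or tests, including the replicate block; squares, 1 library left out). Filled symbols have an adjusted p under 0.05: all 19 are filled for SNHG5, 17 for GAS5, 7 for SNHG19 and 6 for SNHG1.

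Hosts of C/D snoRNAs included GAS5, whose fall was lost under the planned length and GC correction. GAS5 (growth arrest specific 5; chromosome 1, 173827697 to 173838020, minus strand, GRCh37) is the gene whose RNA accumulates in arrested cells, and its exonic RNA has also been described as a decoy for the glucocorticoid receptor. It was at 160.9, 154 and 157 CPM in control and at 146, 141 and 141 CPM in knockdown. All 3 knockdown libraries lay below all 3 control libraries. The log2 fold change was -0.14 ± 0.04 (SE, n = 3 each), a change of -9.41%, with an edgeR adjusted p of 0.00314, and over the alternatives it ran from -0.17 to -0.05. None of the snoRNAs of GAS5 has a row in the count table.

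SNHG5 had the smallest adjusted p of the set. It hosts SNORD50A and SNORD50B (U50), a snoRNA pair lost in some tumours, and lies on chromosome 6 (86360209 to 86388650, minus strand). Control libraries were at 176, 184 and 174 CPM and knockdown libraries at 150.4, 156 and 166 CPM. The groups did not overlap, although knockdown replicate 3 came close to the lowest control. Its log2 fold change was -0.18 ± 0.04 (SE, n = 3 each; edgeR adjusted p 0.00138), and over the alternatives it ran from -0.22 to -0.11.

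SNHG1, which carries the 8 C/D snoRNAs SNORD22 and SNORD25 to SNORD31, moved less. It stood at 97.7, 97.3 and 99.7 CPM in control and at 93.6, 90.8 and 88.6 CPM in knockdown. Every knockdown value was below every control value, with a log2 fold change of -0.11 ± 0.04 (SE, n = 3 each; edgeR adjusted p 0.0331). SNHG1 lost its call when any library other than knockdown replicate 1 was left out, with adjusted p-values of 0.0537 to 0.112.

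SNHG19, a short host of SNORD60 on chromosome 16, was at 19.1, 18.9 and 20.6 CPM in control and 16.2, 17.6 and 16.8 CPM in knockdown. The groups did not overlap. Its log2 fold change was -0.21 ± 0.08 (SE, n = 3 each; edgeR adjusted p 0.0353). It no longer passed without control replicate 1, 2 or 3, or without knockdown replicate 1 or 3 (adjusted p 0.05002 to 0.143).

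SNHG6, the host of SNORD87, was at 38.1, 37.4 and 41.5 CPM in control and 35.0, 35.7 and 33.9 CPM in knockdown, again without overlap. Its log2 fold change was -0.16 ± 0.06 (SE, n = 3 each; edgeR adjusted p 0.0328). Without control replicate 3, the highest library, it was -0.11 with an edgeR adjusted p of 0.179, and it did not pass without knockdown replicate 1 (0.0634) or 3 (0.0949). Of the exon bases annotated to SNHG6, 58.9% also belong to MCMDC2 on the other strand. That gene ranged from 0.238 to 0.708 CPM among controls and from 0.281 to 1.06 CPM after knockdown, far below SNHG6.

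ZFAS1, named for the zinc finger gene ZNFX1 beside it, hosts SNORD12, SNORD12B and SNORD12C. It was at 90.9, 88.8 and 83.0 CPM in control and at 79.6, 80.8 and 84.6 CPM in knockdown. Knockdown replicate 3 lay above the lowest control, and the log2 fold change was -0.10 ± 0.04 (SE, n = 3 each; edgeR adjusted p 0.0862, 95% confidence interval -0.19 to -0.01), which did not pass. Without control replicate 3 (-0.13, edgeR adjusted p 0.0375) or knockdown replicate 3 (-0.13, edgeR adjusted p 0.0419) it did.

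SNHG29 is the most abundant host gene here and 1 of the 2 that rose. It hosts SNORD49A, SNORD49B and SNORD65 and lies on chromosome 17 (16342081 to 16383563, plus strand). Control libraries were at 415, 409 and 398 CPM and knockdown libraries at 428, 428 and 437 CPM. The lowest knockdown value was above the highest control. The log2 fold change was 0.08 ± 0.03 (SE, n = 3 each; edgeR adjusted p 0.0346). The call was lost without control replicate 2 or 3 or without any 1 of the knockdown libraries (adjusted p 0.0527 to 0.101), whereas the length and GC correction gave a larger log2 fold change of 0.20 (edgeR adjusted p 3.77e-07), or 0.15 when centred.

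Hosts of H/ACA snoRNAs included the largest fall and the other rise. SNHG11, which hosts SNORA60 and SNORA71E on chromosome 20 (37074986 to 37079583, plus strand), was at 17.3, 13.6 and 15.6 CPM in control and 12.7, 11.5 and 12.6 CPM in knockdown. The control libraries were spread widely, but none fell below a knockdown library. The log2 fold change was -0.34 ± 0.10 (SE, n = 3 each), a change of -21.1%, with an edgeR adjusted p of 0.00831. Without control replicate 1, the highest library, it was -0.26 with an edgeR adjusted p of 0.0663.

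SNHG15, a host of SNORA9 on chromosome 7 known for a short-lived transcript, was at 76.3, 74.5 and 73.3 CPM in control and 69.6, 69.2 and 63.9 CPM in knockdown. The groups were apart, with knockdown replicate 3 the lowest. Its log2 fold change was -0.15 ± 0.05 (SE, n = 3 each; edgeR adjusted p 0.0160). It did not pass without knockdown replicate 3 (-0.11, edgeR adjusted p 0.0789), control replicate 1 (0.0582) or control replicate 2 (0.0511).

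DANCR (differentiation antagonizing non-coding RNA), described as holding back differentiation of progenitor cells, hosts SNORA26 on chromosome 4 (53578492 to 53589790, plus strand). It was at 157, 160.2 and 152 CPM in control and 162, 168 and 178 CPM in knockdown. Knockdown replicate 1 only just exceeded the highest control, and knockdown replicate 3 was the highest. The log2 fold change was 0.12 ± 0.04 (SE, n = 3 each; edgeR adjusted p 0.0255). It did not pass without knockdown replicate 3 (0.08, edgeR adjusted p 0.112), knockdown replicate 2 (0.0580), control replicate 1 (0.0543) or control replicate 3 (0.0835).

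**Figure D3:**
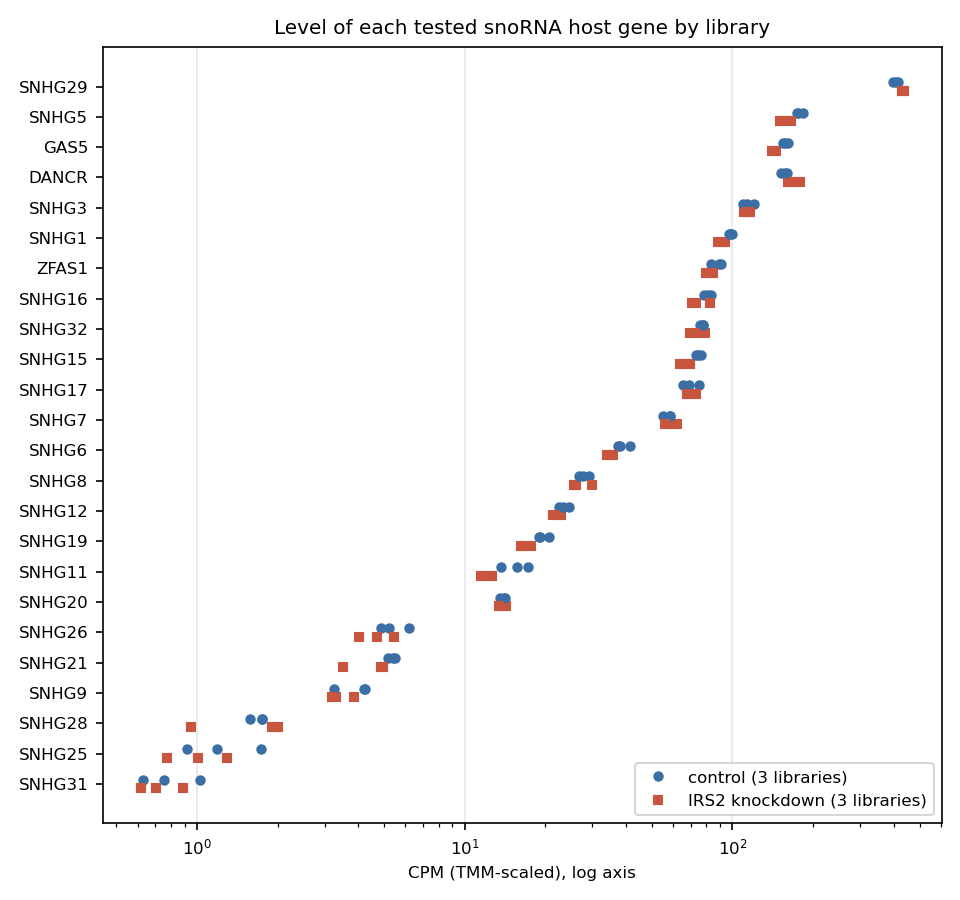
Level of each of the 24 tested host genes in every library, in CPM scaled by TMM factors on a log axis (blue circles, 3 control libraries; red squares, 3 IRS2 knockdown libraries). Levels run from under 1 CPM for SNHG31 to over 398 CPM for SNHG29, and the distance between groups is small beside the distance between genes.

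Grouped by class, 4 of the 10 tested hosts that hold only C/D snoRNAs were lower and 1 was higher, and their median log2 fold change was -0.14 (40.0% lower and 10.0% higher, against 19.2% and 19.3% of all tested genes). Of the 9 hosts that hold only H/ACA snoRNAs, 2 were lower (22.2%) and 1 higher (11.1%), with a median of -0.03. GAS5 is in neither group, because by position, with strand not compared, the H/ACA snoRNA SNORA103 lies inside it beside its C/D snoRNAs. Both classes held falls and rises. These groupings, the start windows and the pairs below were defined after the fold changes had been seen, and the difference between the classes was not tested. By the start window, the order of the groups depended on the definition of the run, and no difference was tested. With a pyrimidine run at the first annotated base, 2 of 5 tested host genes were lower and 0 higher (median log2 fold change -0.10), against 3 lower and 2 higher of 15 without it (median -0.08). With a run within 5 bases, 2 of 11 were lower and 1 higher (median -0.08), against 3 lower and 1 higher of 9 without it (median -0.11). Under either definition GAS5 counts among the lower genes without a run, although it is described as having such a tract. Over all tested genes, 19.2% were lower and 19.3% higher.

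For SNHG3, SNHG17, SNHG20 and SNHG7 the log2 fold change was close to 0. SNHG3, which hosts SNORA73A and SNORA73B (U17, which acts in precursor cleavage), averaged 114 ± 5.48 CPM among controls and 113 ± 2.69 CPM after knockdown (SD, n = 3 each). The difference was -0.01 on the log2 scale, with a 95% confidence interval of -0.10 to 0.08. SNHG17, host of the SNORA71 group, was at 69.7 ± 5.08 and 69.5 ± 3.09 CPM (SD, n = 3 each; 95% confidence interval -0.12 to 0.10). SNHG20 (13.9 CPM in both groups, 95% confidence interval -0.17 to 0.18) and SNHG7 (57.2 and 58.7 CPM, -0.07 to 0.14) likewise did not pass. The interval of SNHG20 also holds changes of the size seen in GAS5.

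Also short of the threshold, SNHG16, SNHG12, SNHG32 and SNHG8 had log2 fold changes of -0.10 to -0.03 and did not pass. SNHG16, host of SNORD1A to SNORD1C, stood at 80.8, 78.1 and 83.1 CPM in control and 73.2, 70.4 and 82.2 CPM in knockdown. Its knockdown replicate 3 lay among the controls, and without that library its log2 fold change was -0.17 (edgeR adjusted p 0.00813). SNHG21, SNHG25, SNHG26, SNHG9, SNHG28 and SNHG31 had means of 11 to 72.2 counts and log2 fold changes of -0.30 to -0.08, with 95% confidence intervals that spanned 0. At this depth, changes of the size seen in GAS5 were not detectable in them.

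The 3 host genes that were not tested had almost no reads. SNHG18 had 0 counts in every library, which allows a level of up to 0.166 to 0.254 CPM (3 counts of a library's total; counting error only). SNHG27 had 0 to 2 counts and SNHG22 had 1 to 7. Levels can be compared between genes only per length. Per kilobase of the canonical GENCODE transcript, the highest control means were 919.9 CPM for SNHG29, 205 for GAS5, 162 for SNHG16 and 135 for SNHG5, an order that rests on 1 transcript per gene.

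Host genes that start close to a gene on the other strand allow a comparison within each library. Of the 27, 8 start within 1000 nt of an opposite-strand gene of the count table, and both genes were tested in 6 of these pairs. ZFAS1 and ZNFX1, a helicase-type antiviral and germ granule protein gene, start 248 nt apart and share 249 nt of exon on opposite strands. ZNFX1 was at 52.1, 47.9 and 56.4 CPM in control and 72.6, 78.9 and 72.1 CPM in knockdown, every knockdown library being higher. It rose by 0.52 ± 0.06 (log2 fold change, SE; edgeR adjusted p 6.41e-07), while ZFAS1 was at -0.10. The ratio of ZFAS1 to ZNFX1 counts was 1.47 to 1.85 in control and 1.02 to 1.17 in knockdown, a log2 difference of -0.62 (exact two-sided permutation p 0.1, the smallest that 3 against 3 allows).

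SNHG1 and SLC3A2, which encodes the heavy chain of the CD98 amino acid transporter, start 51 nt apart. SLC3A2 was measured at 424, 400.5 and 407 CPM among controls and 415, 422 and 432 CPM after knockdown, which overlap (log2 fold change 0.04, edgeR adjusted p 0.288). The ratio of SNHG1 to SLC3A2 counts was 0.231 to 0.245 in control and 0.205 to 0.225 in knockdown, without overlap (log2 difference -0.15, exact two-sided permutation p 0.1). SNHG9 and the ribosomal protein gene RPS2, 54 nt apart, had log2 fold changes of -0.18 (not past the threshold) and -0.14 (edgeR adjusted p 0.000485). Neither ZBTB37 beside GAS5 (0.02), TRAF7 beside SNHG19 (-0.06) nor BARD1 beside SNHG31 (-0.09) passed. The exact permutation p of the ratio was 0.4, 0.2 and 1 for these pairs and 1 for SNHG9 with RPS2. Over the 6 pairs, no ratio could pass a threshold of 0.05.

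**Figure D4:**
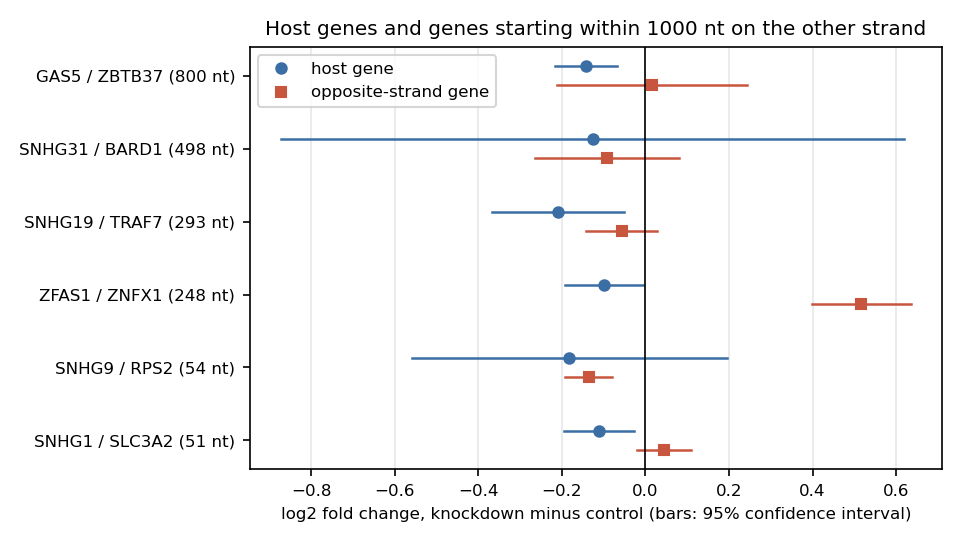
Log2 fold change (horizontal axis, bars for the 95% confidence interval) of 6 host genes (blue circles) and of the gene that starts within 1000 nt on the other strand (red squares), with the distance between starts. ZNFX1, at 0.52, lies far from ZFAS1, at -0.10, and the interval of SLC3A2 (-0.02 to 0.11) lies above that of SNHG1 (-0.19 to -0.03).

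Exons of 11 of the 27 host genes overlap exons of a gene on the other strand, and 4 overlap exons on their own strand. The strand setting of the counting is not given in the sources used here, so reads from such stretches may have been counted for either gene or for none. Opposite-strand genes that rose overlap exons of DANCR and SNHG29, which rose, and of ZFAS1 (ZNFX1, over 249 nt), which did not pass. MYO5B, which also rose, overlaps SNHG22, which was not tested. Mean levels in control and knockdown were 156.6 and 169.4 CPM for DANCR and 407.5 and 431.1 CPM for SNHG29. ERVMER34-1, which overlaps DANCR over 127 nt, went from 34.4 ± 2.39 to 40.7 ± 1.67 CPM (SD, n = 3 each; edgeR adjusted p 0.00323). LRRC75A, which overlaps SNHG29 over 500 nt, was at 8.49, 8.16 and 7.35 CPM in control and 11.96, 10.1 and 9.82 CPM after knockdown (log2 fold change 0.40, edgeR adjusted p 0.00891). Of the exon bases annotated to SNHG7, 30.3% also belong to DIPK1B on the other strand. DIPK1B fell from 19.6 ± 0.593 to 13.7 ± 0.896 CPM (SD, n = 3 each; edgeR adjusted p 4.20e-05), while SNHG7 did not pass. The part of shared reads in these values was not tested.

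The proteins that bind and build snoRNAs showed few changes. Of the 8 core proteins of snoRNA particles, 1 was higher and 1 lower, and the median log2 fold change was -0.02. DKC1, the pseudouridine synthase of H/ACA particles, rose by 0.14 ± 0.03 (SE; edgeR adjusted p 0.00121), and its partner NHP2 had a log2 fold change of -0.12 ± 0.04 (SE; edgeR adjusted p 0.0224). Among 11 tested assembly factors, 1 was higher (RPAP3, 0.14) and 1 lower (NOLC1, -0.10), with a median of -0.02. The share called was 25.0% and 18.2% in these lists, against 38.5% of all tested genes. The 2 core proteins became 1 without control replicate 1 or 2 or knockdown replicate 1 or 2, with the Wald test of DESeq2 and after thinning. The 2 assembly factors became 0 without control replicate 2, 1 without control replicate 3 or knockdown replicate 2 or 3 or with the Wald test, and 4 with library size alone.

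Factors of nonsense-mediated decay, which degrades many host transcripts, moved in both directions. Of 17, 4 were higher and 4 lower (47.1% called, against 38.5% of all tested genes), and the median log2 fold change was -0.02. PNRC2, an adaptor to decapping, rose by 0.32 and NBAS rose by 0.22, while SMG5, needed to recycle UPF1, had a log2 fold change of -0.19. The edgeR adjusted p was 3.31e-06 for PNRC2, 0.00194 for NBAS and 9.81e-05 for SMG5. The 8 calls became 5 without control replicate 2, 4 without knockdown replicate 2, 4 with the Wald test of DESeq2 and 5 after thinning.

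Messenger RNAs with a terminal oligopyrimidine tract outside the ribosome were also split. Of 27, 6 were higher and 8 lower (51.9% called, against 38.5% of all tested genes), and the median log2 fold change was -0.02. EIF3F, a subunit of initiation factor 3, fell by 0.52 on the log2 scale and the histone chaperone gene NAP1L1 fell by 0.23, while the importin gene IPO5 rose by 0.23. Without knockdown replicate 2 the 14 calls became 8. Of 16 regulators of such mRNAs, 4 were higher and 2 lower (37.5% called, near the 38.5% of all tested genes). MYC (0.27) and MTOR (0.27) rose, and RPS6KB2, an S6 kinase gene, fell by 0.27 on the log2 scale.

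Protein-coding hosts of snoRNAs outside the ribosome gave a share at the background. Of 34, 7 were higher and 6 lower (38.2% called, against 38.5% of all tested genes), and the median log2 fold change was -0.02. NAP1L4 fell by 0.32 on the log2 scale, while PTCD3 rose by 0.21 and the chaperone gene HSPA8, host of SNORD14 copies, rose by 0.15. Of the genes fixed as neighbours of host genes, 10 were tested, of which 2 were higher (ZNFX1 and EPB41L4A, 0.42) and 1 lower (CCM2, -0.13), a share of 30.0% against 38.5% of all tested genes. The 3 calls became 5 with the length and GC correction in either form. The list left out other neighbours and overlapping genes that were tested. Of these, RPS2, ACAA2 and DIPK1B were lower, and ERVMER34-1, LRRC75A, SEC14L1 and MYO5B were higher. LINC01618, BARD1 and TRAF7, also left out, did not pass. The share of the list therefore does not describe all genes beside or overlapping host genes.

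The snoRNAs themselves could hardly be read from these libraries. The count table has 440 rows of snoRNAs and small Cajal body RNAs, of which 271 had 0 counts in every library. Their sum was 440 to 489 counts per control library and 529 to 615 per knockdown library. The host gene rows thus had 44.6 to 51.1 counts for each count in a snoRNA row. Only 10 of these rows were tested. In edgeR 0 passed the threshold, 2 had an unadjusted p under 0.05, and DESeq2 and limma voom each called 0. With so few counts in these rows, whether mature snoRNAs changed was not detectable, and why the rows gathered so few was not tested.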

How the data were processed

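Per the file headers, the authors deposited a table of whole-number read counts per gene symbol and a second table of normalized signal, which is the counts of each library divided by 1 constant (0.847 to 1.25). The submitters' processing notes name STAR 2.6.1a, Salmon and DESeq2 and the build hg19, with no roles. The counting tool, annotation and strand setting are not given in the sources used here. Each column was tied to its sample by the description, leaving 0 unused.

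Counts were tested with edgeR 4.0.16 (R 4.3.3; TMM, filterByExpr, quasi-likelihood F-test, group only), with Benjamini-Hochberg adjustment over all tested genes and a threshold of 0.05. Standard errors are the absolute log2 fold change over the square root of F. CPM values are scaled by TMM factors, except marker sums, which use total counts. PCR reads are not independent molecules, so floors cover counting error only. The host genes, the lists and the tests were chosen with earlier results of these data known. Named singly were host genes that passed and averaged 50 counts or more, GAS5, ZFAS1, DANCR and SNHG1, and up to 3 genes of each list by p. Other host genes, neighbours and overlapping genes were named after their values were seen.

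Alternatives were DESeq2 size factors, library size alone, no filter, a mean of at least 50 counts, DESeq2 1.42.0 (Wald), limma 3.58.1 (voom, or log2 of the deposited normalized signal plus a pseudocount of 1), thinning, a replicate block, a spline correction for length and GC content without and with the block, a threshold of 0.01, and leaving out each library. The correction used 1 canonical GENCODE v44 transcript per gene (95.8% of tested genes, all 24 host genes). It was run as planned, uncentred, and then, chosen after seeing that it shifted all fold changes and ended the call of GAS5, with each library's trend centred to a median of 0. Both are reported. Gene positions are from GENCODE lifted to GRCh37, promoters from RefSeq. The edgeR script was tested on simulated counts.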

Additional observations from a re-analysis of the deposited data

How the results depend on the processing

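IRS2 kept its direction and its call in all 19 alternative fits (log2 fold change -1.42 to -1.35), and the count of all genes past the threshold stayed within 1.5 times its value (3599 to 6073). Of 451 values for the 24 tested host genes under these fits, 357 kept both direction and side of the threshold, 57 lost the call, 5 gained it and 32 changed sign, the last only in host genes that did not pass. The cause of these changes was not tested. Depth limits host genes under about 200 counts, for which falls like that of GAS5 were not detectable.

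The 9 host genes past the threshold (7 lower, 2 higher) became 0 higher with library size alone, 1 higher with a mean of at least 50 counts, 4 lower with no low-count filter, 4 in all (2 lower) with the Wald test of DESeq2, and 3 in all (3 lower, 0 higher) at an adjusted p of 0.01. The length and GC correction as planned left 5 in all (3 lower), with or without the replicate block, and turned the split of all calls to 65.9% higher. Its centred form, added after seeing that result, left 4 lower, with or without the block, and 51.6% of all calls higher. GAS5 lost its call in the planned form (-0.05, edgeR adjusted p 0.254, or 0.277 with the block) and kept it in the centred form (-0.10, edgeR adjusted p 0.02003, or 0.0255 with the block). Leaving out 1 library gave 4 to 6 in all, 0 to 1 higher and 3 to 6 lower. With the replicate block alone, 5 passed, 0 of them higher. Deviations of same-numbered libraries had correlations of 0.045, -0.011 and -0.098 over 13832 genes. The labels give a shared number only, and whether same-numbered libraries were seeded or processed together is not stated.

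Some host genes near 0 changed sign. With the planned length and GC correction, without and with the block, SNHG16 was at 0.014 and 0.0095, SNHG17 at 0.038 and 0.043, SNHG32 at 0.0065 and 0.0044, SNHG3 at 0.042 and 0.044, and SNHG8 at 0.048 and 0.046. SNHG20 was at -0.029 with library size alone, -0.011 with a mean of at least 50 counts, -0.00056 with voom, -0.062 after thinning and -0.013 to 0.031 with 1 library left out. SNHG17 was at 0.0047 with no filter, 0.0031 with the Wald test, 0.0061 with the deposited normalized values and -0.050 to 0.051 with 1 library left out. SNHG3 was at 0.00073 with no filter and -0.037 to 0.026 with 1 library left out. In such fits SNHG8 ran from -0.11 to 0.016, SNHG31 from -0.28 to 0.098, SNHG7 from -0.0021 to 0.066 and SNHG28 from -0.28 to 0.21.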
